A study of Homo sapiens with 40 samples.

Results

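CERS4 and HSD11B1L are 2 of the 9460 genes in a catalogue of transcript models from human embryonic stem cells and their neural derivatives. A transcript model is the chain of exons of 1 spliced RNA, with its coding region where one was assigned. The members were all models that carry either gene name, 15 for CERS4 and 15 for HSD11B1L, or 30 of 19972 models. The genes were chosen by their high number of models in these data, which is therefore a description and not a result: 5 genes had more models, and 6 genes followed with 14 each. The question asked of them was whether their models differ mainly in the 5' untranslated region (5' UTR), the leader before the coding region, or in the coding region itself.

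The libraries came from H9, an established human embryonic stem cell line, as neural progenitor cells (NPC) made by dual-SMAD inhibition and as embryonic stem cells (ESC) labelled as control. Dual-SMAD inhibition blocks BMP and activin/TGF-beta signalling, which steers pluripotent cells towards neural tissue. NPC and ESC extracts were split into RNA of the whole cytosol, of single ribosomes (monosome), of light polyribosomes with 2 to 4 ribosomes and of heavy polyribosomes with 5 or more. Each cell type and fraction had 2 libraries of long reads and 3 of short reads, 40 libraries in all. The catalogue is labelled as long-read and gives positions of exons and coding regions but no value per library. NPC and ESC, or fractions, were therefore not compared, the depth and the amount of each RNA are unknown, no replicate error exists, and no test was made.

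CERS4 encodes ceramide synthase 4, an enzyme of the endoplasmic reticulum membrane that joins a long-chain fatty acid to a sphingoid base and so makes (dihydro)ceramide, the parent lipid of sphingomyelin and glycosphingolipids. The mammalian ceramide synthases form a family whose members prefer fatty acids of different length. HSD11B1L encodes a relative of 11-beta-hydroxysteroid dehydrogenase type 1, the enzyme that regenerates cortisol from cortisone, and belongs to the short-chain dehydrogenase/reductase superfamily. In most mRNAs the ribosome enters at the capped 5' end and scans the leader for a start codon, so that exons added to or taken from a leader can leave the protein unchanged, or can remove the start codon and shift initiation downstream. Within the coding region an exon whose length is divisible by 3 can be skipped without a change of reading frame.

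The leader of CERS4 took more forms than its coding region, and in HSD11B1L the coding region took more forms than the leader. Leaders were compared as intron chains, the ordered list of introns that lie wholly upstream of the model's own start of the coding region, so that small differences in the first base of a model do not count. The 15 CERS4 models all had a coding region and held 11 leader intron chains and 7 coding regions. Of the HSD11B1L models 9 had a coding region, and these held 5 leader intron chains and 7 coding regions. Among the 608 genes with at least 5 coding models, 29.9% had more leader chains than coding regions, as CERS4 did, 60.2% had fewer, as HSD11B1L did, and 9.87% had equal numbers. Both differences ended when models with an intron seen in no other model of the gene were left out: 7 chains and 7 coding regions remained in 11 CERS4 models, and 5 of each in 7 HSD11B1L models. With coding regions compared only by their start and stop positions, HSD11B1L had 5, as many as its leader chains, and CERS4 still had 7. With leaders bounded by the gene's most frequent start, CERS4 had 9 leader chains and HSD11B1L had 3, against 7 coding regions in each. The larger main counts include introns behind that start, in models whose own start lies further downstream. With leaders compared base for base, first base included, HSD11B1L had 8 leaders against 7 coding regions, and its order was reversed.

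**Figure D1:**
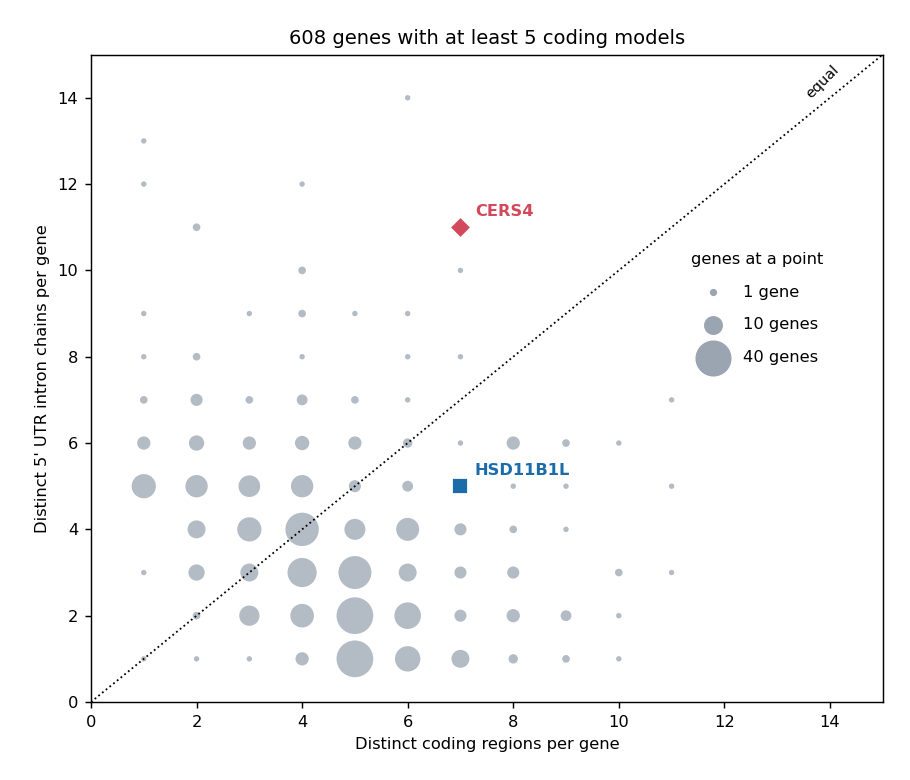
Distinct coding regions (x axis) and distinct 5' UTR intron chains (y axis) per gene for 608 genes with at least 5 coding models, with the area of a grey point giving the number of genes there. CERS4 (red diamond, 7 and 11) lies above the dotted line of equal numbers and HSD11B1L (blue square, 7 and 5) below it.

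CERS4 stood near the upper end of the 608 genes in its number of leader chains, and HSD11B1L had more leader chains than most of them. Of the 608 genes 4 had more than 11 leader chains, 85 had more than the 5 of HSD11B1L, and 41 had more than 7 coding regions. The median was 3 leader chains. The comparison is uneven, since these genes had a median of 6 coding models against 15 for CERS4. Among the 46 genes with at least 10 coding models the leader chains had a median of 6 and the coding regions a median of 7, and 11 of the 46 had a larger excess of leader chains than the 4 of CERS4. This comparison is uneven too, since the 46 genes had a median of 11 coding models. A gene cannot have more leader chains than coding models, and CERS4 was chosen by its number of models. Among the 30 genes with 9 coding models, HSD11B1L included, 8 had more than 5 leader chains and 15 fewer, while 12 had a higher and 12 a lower difference between leader chains and coding regions than HSD11B1L, whose value was -2.

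The CERS4 leader was assembled from 3 separate choices (chromosome 19, plus strand, models from 8209347 to 8262419, positions as deposited). All 15 models opened with the same first exon, which ended at 8209494. An exon of 157 nt (8210706 to 8210862) was then present in 7 models and absent from 8. An exon of 117 nt (8241341 to 8241457) was present in 2 models, model 2 with the 157-nt exon and model 4 without it. No model of the catalogue reads either exon as coding sequence. Models are numbered here in the order of their deposited identifiers.

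The last of these choices lay at the exon that carries the usual start of the CERS4 coding region, at 8251077. That exon ended at 8251249 in every model that had it, but began at 8251076 in 7 models, at 8251044 in 3 and at 8251110 in 2, and it was skipped in 3. With the beginning at 8251076 the start lies 1 nt inside the exon, and with the one at 8251044 the leader was 32 nt longer before the same start. The beginning at 8251110 lies 34 nt downstream and removes the start. The 3 choices allow 16 combinations, of which 9 were found in the 15 models.

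**Figure D2:**
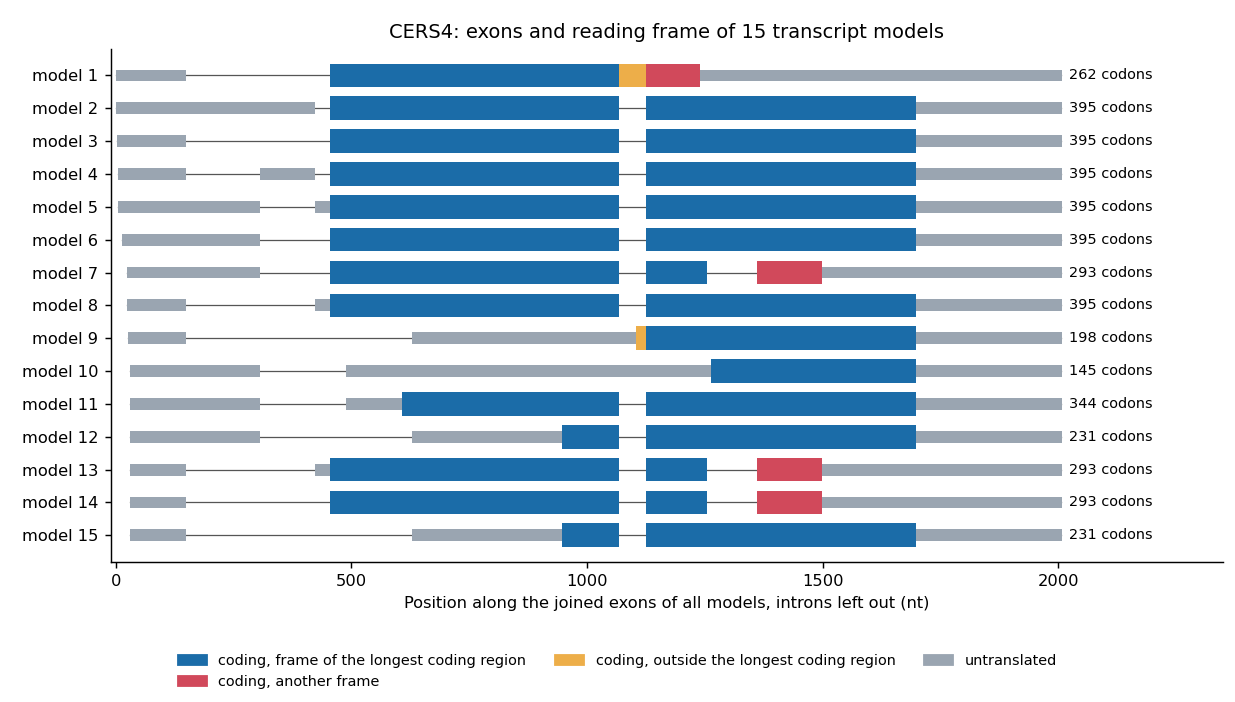
Exons of the 15 CERS4 models along the joined exons of all models with introns left out (x axis, nt; thin lines span exons that a model lacks), with tall boxes for coding and low boxes for untranslated sequence. Models 2, 3, 4, 5, 6 and 8 share the coding region of 395 codons behind 6 different leaders, and the coding region of models 9, 10, 11, 12 and 15 begins further downstream.

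A set of 6 CERS4 models (2, 3, 4, 5, 6 and 8) carried 1 coding region of 395 codons, the longest of the gene, behind 6 different leader chains. The leaders of these models measured 422, 147, 262, 333, 294 and 157 nt. They differed only in the 157-nt exon, the 117-nt exon and the 32 nt at the start exon, beside the first base. The shorter coding region of 293 codons was likewise found behind 3 leader chains (models 7, 13 and 14, with leaders of 282, 152 and 120 nt), and that of 231 codons behind 2 (models 12 and 15, 595 and 438 nt). Over all pairs of CERS4 models, 19 of 105 shared a coding region, and all 19 differed in the leader chain. That outcome is largely fixed by the catalogue, in which no 2 models of a gene share all introns, so that models with 1 coding region must differ outside it. Models 2, 4, 5 and 12 each hold an intron found in no other CERS4 model. Without these models, 6 pairs shared a coding region, and only models 3, 6 and 8 of the first set remained.

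Where the choice at the start exon removed the usual CERS4 start, another start was assigned. Of the 15 coding regions as assigned to the models, 10 began at 8251077, and the other 5 began at 4 other positions. Each of the 5 models that began elsewhere lacked base 8251077: 3 skipped the start exon (models 9, 12 and 15) and 2 used the beginning at 8251110 (models 10 and 11). For comparison, in the genes with at least 5 coding models 29.4% of the 1103 models that did not use the gene's most frequent start lacked that base. With 5 start positions in CERS4 and 4 in HSD11B1L, both genes were among the 11.7% of these genes that had at least 4. Among the 46 genes with at least 10 coding models, the upper quartile was 4 start positions, and 7 genes, CERS4 included, had 5. These 46 genes had a median of 11 coding models, against 15 for CERS4. Of the 30 genes with 9 coding models, HSD11B1L included, 4 had more than its 4 start positions and 24 had fewer.

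Downstream starts left different parts of the ceramide synthase frame. Model 11 began at 8251230, 51 codons into the longest coding region, and kept 344 codons, 87.1% of the bases of the 395-codon region in its frame. Models 12 and 15 began at 8256260 and kept 231 codons, 58.5% of it. Model 9 began at 8256928, in an exon extension, with 198 codons, and read 48.4% of the longest region in its frame. Model 10 began at 8257888 with 145 codons, the shortest of the gene, and read 36.7%. All 5 ended at 8262109, the stop of the longest region. Models 10 and 11 made the same leader choices and had different assigned starts, and so did models 9 and 15. Beside the first base, the exons within each pair differed only in the exon extension, held by models 9 and 10. What set the assigned starts was not tested, and whether ribosomes use them was not measured.

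Beyond the start exon CERS4 varied at 2 places. The exon that ends at 8257077 was 129 nt long in 12 models and 187 nt in 3 (models 1, 9 and 10), whose beginning at 8256891 lay 58 nt upstream, a length not divisible by 3. The exon of 107 nt from 8257879 to 8257985, also not divisible by 3, was skipped in 3 models (7, 13 and 14). No model combined the extension with the skipped exon. The introns between 8254616 and 8256618 and the one at the last junction (8261844 to 8261930), 5 in all, were found in every model. All 15 models ended at base 8262419, and one last base in all models was found in 10.5% of the genes with at least 5 models.

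Both coding changes put the reading frame off in the CERS4 models that kept the usual start. Models 9 and 10, which also hold the 58-nt extension, began inside or behind it and read no base of the longest region in another frame. In model 1 the 58-nt extension was followed by 116 nt in another frame and a stop at 8257064, after 262 codons. That stop lay 277 nt upstream of the last exon junction, which makes model 1 the only CERS4 model that met a common rule for candidates of nonsense-mediated decay, a stop more than 50 nt upstream of that junction (3.14% of all coding models met it). In models 7, 13 and 14 the skipped 107-nt exon was followed by 138 nt in another frame and a stop at 8261825, after 293 codons, 62.5% of the longest region in its frame. This stop lay 19 nt upstream of the last junction and did not meet the rule. The rule reads the models and measures no decay.

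The assigned coding region of model 10 was not the only one its exons allow. Model 10 has the later beginning of the start exon, as model 11 has, and the 58-nt extension, as model 1 has. The frame that begins at 8251230 in model 11, followed through the exons of model 10, runs in register into the stop of model 1 at 8257064. This would give 211 codons, against the 145 assigned, with the stop 277 nt upstream of the last junction. The same exercise in model 9 from the start of models 12 and 15 gave 98 codons, fewer than the 198 assigned. The sources used here do not say how the coding regions were chosen.

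HSD11B1L had fewer leader chains than coding regions, and its models differed mainly behind the usual start (chromosome 19, plus strand, models from 5681136 to 5688522). All 15 models again shared the end of the first exon, at 5681271. The first intron ended before 5684819 in 11 models, before 5684781 in 2 (models 2 and 9, 38 nt more leader) and before 5684965 in 2 (models 4 and 10, an exon without the usual start). The usual start, at 5684833, lay 14 nt inside the exon that begins at 5684819 and was used by 5 of the 9 coding models (3, 7, 8, 9 and 15). No exon was inserted between the first exon and the start exon. Leaders of the models with the usual start measured 141, 136, 136, 173 and 114 nt, against a range of 120 to 422 nt over the 10 CERS4 models with the usual start.

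**Figure D3:**
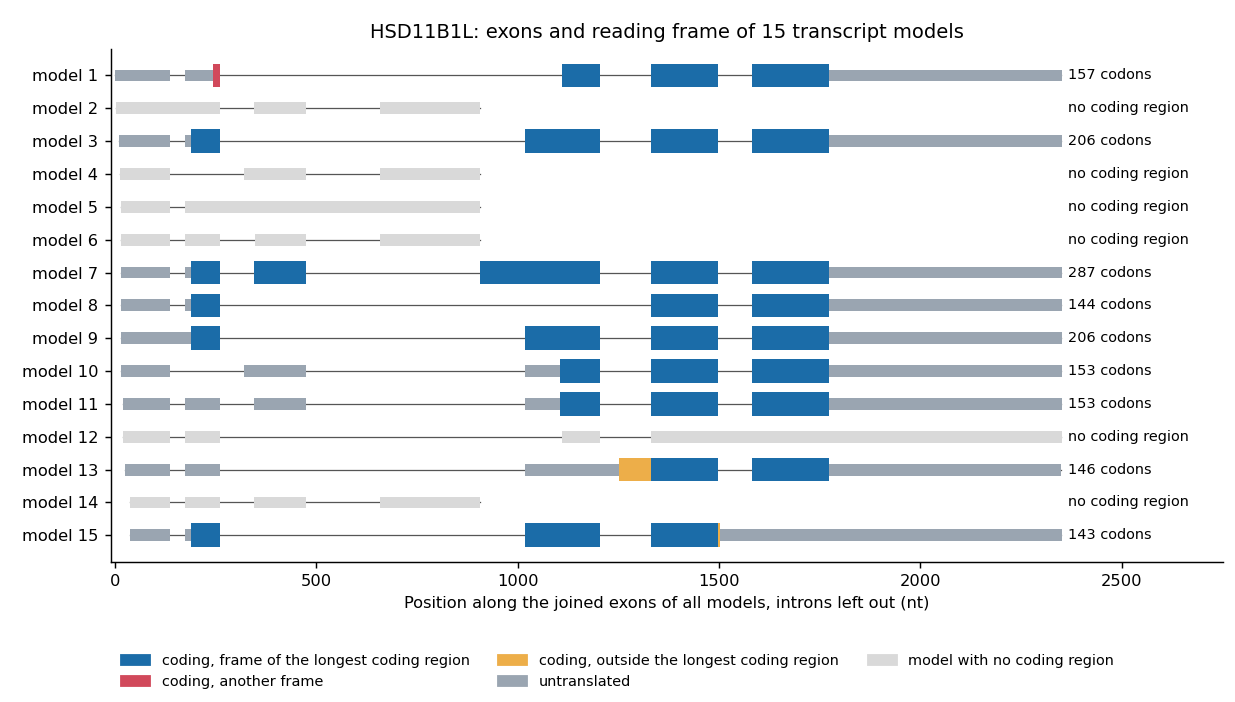
Exons of the 15 HSD11B1L models along the joined exons of all models with introns left out (x axis, nt; thin lines span exons that a model lacks), with tall boxes for coding and low boxes for untranslated sequence. Model 7 alone holds the coding region of 287 codons, and 6 models, drawn in light grey, have no coding region.

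The longest HSD11B1L coding region, of 287 codons, was found in 1 model, model 7. It was the only one of the 15 models with the exon of 112 nt from 5686416 to 5686527. The exon of 131 nt from 5684989 to 5685119 was present in 4 models, of which 2 (7 and 11) had a coding region. The exon of 92 nt (5686900 to 5686991) was found in 7 of 9 coding models and that of 94 nt (5687282 to 5687375) in 7 as a separate exon. The exon of 166 nt from 5687503 to 5687668 was read as coding sequence, whole and in 1 frame, by all 9. These 166 nt were the only bases of the 861 nt in the longest region that all 9 models read in that frame. No base was read in 1 frame by all 15 CERS4 models, where the coding region of model 1 ended before that of model 10 began. The 2 genes are not evenly compared here, since added models can only shrink such a shared set.

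None of the 5 internal exons of HSD11B1L that at least 1 model read as coding sequence from end to end was divisible by 3 in length, but certain neighbours were together. The exons of 131 and 112 nt sum to 243 nt, or 81 codons, and those of 92 and 94 nt sum to 186 nt, or 62 codons. Models 3 and 9 lacked the first pair and kept the usual start and stop with 206 codons, 71.8% of the longest region in its frame. Model 8 lacked both pairs, 429 nt in all, and kept start, frame and stop with 144 codons, 50.2%. The intron that skips both pairs was found in no other model of the gene. Models 3 and 9 shared their coding region and differed by the 38 nt of leader, and 2 of 36 pairs of HSD11B1L coding models shared a coding region.

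Where the skipped length was not divisible by 3, the assigned start of HSD11B1L lay downstream. Model 11 lacked only the 112-nt exon and began at 5686986, with 153 codons. Model 1 lacked the exons of 131, 112 and 92 nt, 335 nt together, and began at 5684888, 55 nt behind the usual start. It read 18 nt in another frame and then joined the frame of the longest region, for 157 codons. Model 10, which has the exon beginning at 5684965, also began at 5686986, and so shared the coding region of model 11. In HSD11B1L 3 of the 4 coding models with another start (1, 11 and 13) still held base 5684833 in an exon and 1 (model 10) lacked it, whereas in CERS4 all 5 such models lacked the usual base. These are counts of a few models and were not tested against each other.

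Retained introns added the remaining coding forms of HSD11B1L. Model 13 kept the intron of 127 nt between 5687376 and 5687502 as exon, and its start at 5687424 lay inside it. Of its 146 codons, 79 nt came from the intron and the rest was read in the frame of the longest region. Model 15 kept the intron of 84 nt between 5687669 and 5687752, in which its stop at 5687672 lay after 4 nt, with 143 codons, the fewest of the gene. Model 12 kept the same intron and had no coding region. All other coding models of HSD11B1L ended at 5687945, so that the gene had 2 stop positions, against 3 in CERS4; at least 3 were found in 29.4% of the 608 genes. None of the 9 met the decay rule.

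The 6 HSD11B1L models without a coding region were in the main a short 3' form. Without a coding region were 13.6% of all models of the catalogue, 6 of 15 for HSD11B1L and 0 of 15 for CERS4. Of the 6, 5 (models 2, 4, 5, 6 and 14) ended at 5685550, upstream of the other 10 models, which ended at 5688522 (9) or 5688521 (1). The short models measured 527 to 854 nt and 4 of them used a last exon of 249 nt from 5685302. Model 5 ran unspliced through that region in a last exon of 732 nt. Model 6 joined the exon of 131 nt at a site 4 nt further in, which left 127 nt. Base 5684833, where the coding models usually start, lay in an exon of 5 of the 6 models without a coding region and was absent from model 4. Whether these RNAs were on ribosomes cannot be read from the catalogue.

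**Figure D4:**
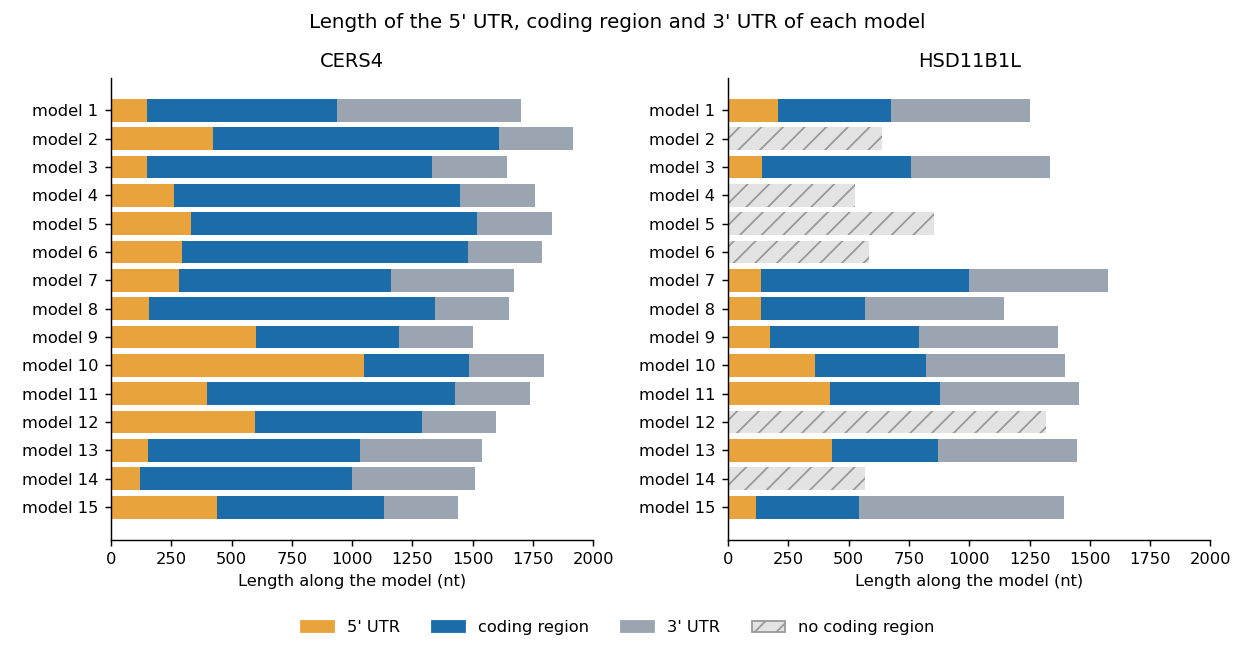
Length in nt (x axis) of the 5' UTR, the coding region and the 3' UTR of each CERS4 model (left) and HSD11B1L model (right), with hatched bars for models that have no coding region. The 5' UTR of CERS4 ranges from 120 to 1051 nt and that of HSD11B1L from 114 to 432 nt.

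Measured in bases, HSD11B1L varied mainly in coding sequence. CERS4 varied about equally in leader and coding sequence when the coding part of its start exon was counted as coding. A base was called variable when it was exonic in 1 coding model and inside an intron of another. CERS4 had 307 variable bases upstream of all starts and never coding, and 338 that were coding in at least 1 model. The 338 include the 173 coding nt of the start exon, whose skipping or later beginning was described above as a leader choice. HSD11B1L had 52 and 585, and another 152 that lay downstream of its most 5' start but were coding in no model. Over the 608 genes the medians were 0 and 249, and 21.9% had more variable leader bases than coding ones. For variable leader bases 87 of the 608 genes were at or above CERS4, itself included, and 219 at or above HSD11B1L. For variable coding bases 199 were at or above CERS4 and 69 at or above HSD11B1L, so that both genes lay above the median on both measures. That comparison is uneven, because added models can only enlarge the set of variable bases. The 608 genes had a median of 6 coding models, against 15 for CERS4 and 9 for HSD11B1L. Bases were not compared at equal numbers of models.

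The lengths varied with the position of the start and stop and, in the leader, also with the exons before the start. The 5' UTR of the CERS4 models had a median of 294 nt (120 to 1051 nt), the coding region a median of 293 codons (145 to 395) and the 3' UTR a median of 310 nt (310 to 767 nt). For the 9 coding HSD11B1L models the medians were 173 nt (114 to 432 nt), 153 codons (143 to 287) and 577 nt (576 to 850 nt). The final codon of each deposited region is counted. The longest leader of CERS4, that of model 10, spans 9 introns, most of which lie inside the coding region of other CERS4 models.

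First bases were tightly placed in both genes. CERS4 models began at 9 positions within 30 nt, from 8209347 to 8209376, and 6 of the 15 began at the last of these. HSD11B1L models began at 9 positions within 37 nt, from 5681136 to 5681172. No model of either gene had an alternative first exon. The closest gene of the catalogue upstream of HSD11B1L was MICOS13, a gene of the mitochondrial cristae-organising complex on the minus strand, whose models lay 463 nt away, head to head. No gene of the catalogue lay within 20000 nt of CERS4, and no model of another gene overlapped either gene.

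Relatives of the 2 genes had median numbers of models at or just below that of all genes. Of 37 genes of sphingolipid synthesis and turnover, 22 had a model, with a median of 1.5 models, against 2 over all genes. Of the ceramide synthase genes CERS5 had 5 models with 3 leader chains and 5 coding regions, CERS1 and CERS2 had 2 models each, and CERS3 and CERS6 had none. SPTLC1, a subunit of serine palmitoyltransferase, which starts the pathway, had 4 models with 2 leader chains and 3 coding regions in the 3 that code. Of 48 genes of 11-beta-hydroxysteroid and other short-chain dehydrogenases, 37 had a model, with a median of 2. At least 2 models were found for 11 of the 22 sphingolipid genes, for 25 of the 37 dehydrogenase genes and for 4731 of all 9460 genes. HSD11B2, which inactivates cortisol, had 1 model and HSD11B1 had none. DECR1, a dienoyl-CoA reductase of fatty acid oxidation, had 6 models with 6 leader chains and 5 coding regions, and HSD17B14, a 17-beta-hydroxysteroid dehydrogenase gene, had 6 with 2 leader chains and 6 coding regions. Absence from the catalogue does not mean that a gene was silent.

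Genes with more leader chains than coding regions were a minority in both lists of relatives, as they were over the catalogue. Of the 11 sphingolipid genes with at least 2 coding models 4 had more leader chains and 6 had fewer, CERS4 included, and of the 23 dehydrogenase genes 3 had more and 16 fewer, HSD11B1L included. Over the catalogue 911 of 4063 such genes had more and 2256 fewer.

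Likeness to other genes was measured as the sum of absolute differences in the numbers of coding models, leader chains and coding regions. Among 45 others with at least 10 coding models, the genes nearest to CERS4 were TARBP2 (12, 10 and 7) at a sum of 4 and APTX (16, 14 and 6) at 5. TARBP2 encodes a double-stranded RNA-binding partner of Dicer and APTX a repair enzyme of DNA ends. At a sum of 7 followed DMKN (15, 4 and 7), DPH7 (12, 12 and 4) and TMEM116 (11, 9 and 6), of which DMKN had fewer leader chains than coding regions and the other two more. HSD11B1L, with 9 coding models, lies outside that class. Over all genes with at least 5 coding models ENDOV, POLB and SERGEF had the same 3 counts as HSD11B1L (9, 5 and 7). Among the 46 genes with at least 10 coding models the nearest were ARMC8 (11, 6 and 7), FUOM (11, 5 and 8), TMEM161A and TRMU (10, 6 and 8 in both), all at a sum of 3.

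The catalogue held models of 7 of 8 stem cell markers, among them POU5F1 and NANOG but not LIN28A, and of 5 of 8 progenitor markers, among them PAX6 and OTX2 but not SOX1, SOX2 or LHX2. Of other cell types it held models of all 3 neuron markers (DCX, TUBB3 and MAP2), of 1 of 5 mesoderm and endoderm markers (AFP) and of 1 of 3 neural crest markers (PAX3). Every model of the catalogue has more than 1 exon, so intronless genes such as SOX2 are not represented.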

How the data were processed

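The deposited file used here holds transcript models, with the first and last base of each model, exon and coding segment as values in nt and no other measure; per the file, the source of every line is PacBio. STAR 2.7.8a and Salmon 1.9.0 appear in the submitters' processing notes, with no step named for either. Long-read libraries used R2C2, a method that reads repeated copies of each circularised cDNA, per the labels' protocols. The sources used here do not name the tool that built the models or assigned coding regions, the filters, the annotation or the genome build. Positions are printed as deposited, counted from 1.

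Models were parsed with Python 3.11.15 (pandas 2.3.3). Introns are the gaps between exons. Reading frames were compared by the codon position of each genome base. Frames were checked by coordinates only, since no genome sequence was used. Genes whose models lie on more than 1 chromosome or strand (10) were left out of comparisons over genes. Related genes were looked up by symbol or by a synonym in RefSeq's table that is no current symbol.

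The members and lists were chosen with earlier results of these data known. Genes named beside the members are those of the 2 related lists with the most models (up to 3 per list), CERS1 to CERS6, HSD11B1 and HSD11B2, the 3 genes with at least 10 coding models nearest to each member in 3 counts, and markers; MICOS13, genes tied with those 3, genes equal to HSD11B1L in all 3 counts and examples of markers were chosen after their values were seen. Other settings merged splice sites within 12 nt, left out coding regions within 2 nt of an end of the model, required introns in at least 2 models, fixed the start, compared leaders base for base, compared coding regions by start and stop and changed the minimum of coding models.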

Additional observations from a re-analysis of the deposited data

How the results depend on the processing

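The difference between leader chains and coding regions depended on which models and which leader bases were counted and, in HSD11B1L, on how coding regions were compared. With models limited to introns present in at least 2 models of the gene, CERS4 had 7 leader chains. The difference was then 0 in CERS4 and 0 in HSD11B1L, with 7 and 5 coding regions. By construction 4 CERS4 models (2, 4, 5 and 12) and 2 HSD11B1L coding models (7 and 8) drop out. Model 7 holds the longest HSD11B1L coding region. With the leader bounded by the gene's most frequent start, HSD11B1L had 3 leader chains, and the differences were 2 in CERS4 and -4 in HSD11B1L. With leaders compared base for base, HSD11B1L had 8, and the differences were 8 in CERS4 and 1 in HSD11B1L, where the order was reversed because different first bases then count. With coding regions compared by start and stop only, HSD11B1L had 5, and the differences were 4 in CERS4 and 0 in HSD11B1L; its use for the difference and for pairs of models was chosen after seeing the data. Merging splice sites within 12 nt and leaving out coding regions within 2 nt of an end of the model changed no count of either gene. The share of genes with more leader chains than coding regions was 22.4% with a minimum of 2 coding models and 43.5% with 10. All pairs of models with 1 coding region differed in the leader under each setting run for pairs but 1: with regions compared by start and stop, 4 of 7 HSD11B1L pairs differed (57.1%). Where coding regions were compared in full, the result was largely fixed, since no 2 models of a gene share all introns. Leaving out a replicate was not run, and no count model was fitted. No paired analysis was possible because the catalogue holds no value per library. Depth is unknown, so how completely either gene was sampled cannot be stated.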
